A study of Mus musculus with 16 samples.

Results

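The 32 genes described here encode the enzymes and regulators of cholesterol and fatty acid synthesis. They were chosen by name for their known role, not by their values, and all 32 were found among the 26595 features of one experiment and the 36930 features of the other, Sc4mol there under its other name Msmo1. By role, 8 carry acetyl-CoA through mevalonate to squalene, 10 turn squalene into cholesterol, 6 sense or carry sterol or drive transcription of the set, and 8 make, elongate or desaturate fatty acids.

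RNA was sequenced from mouse bone marrow cells purified by fluorescence-activated sorting, in 16 libraries of 6 groups. LSK cells are the Lin- Sca-1+ c-Kit+ fraction that holds the blood stem and progenitor cells, and LSCs are the leukemia stem cells of a chronic myeloid leukemia (CML) model. The first experiment held naive LSKs of BL/6 mice (WT LSK, 2 libraries) and of CD93-/- mice (KO LSK, 2 libraries), with LSCs from CML mice that had received BL/6 cells (WT LSC, 3 libraries) or CD93-/- cells (KO LSC, 3 libraries). In the second, BL/6 CML mice received metoclopramide (MCP) at 10 mg/kg or vehicle (Veh), with 3 LSC libraries each. Metoclopramide is a dopamine receptor antagonist used as an antiemetic, and CD93 is a transmembrane receptor found on early blood progenitors. All mice were labelled as 8 weeks old after birth. CML was made in both experiments by infecting sorted LSKs a second time with a BCR-ABL1-GFP vector after a first round and transplanting them into BL/6 recipients that had not been irradiated, so host blood cells remained and CD93-/- leukemia grew in recipients with normal CD93. The strain is labelled C57BL/6 for the WT groups and is not given for the KO groups. For the drug libraries the source field names LSKs and the titles name LSCs; groups follow the titles. Nothing in the labels says that replicates came from separate mice, so the p-values below measure only the spread between these libraries, which may be technical.

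Cholesterol is built from acetyl-CoA through mevalonate, the isoprenoid farnesyl diphosphate and squalene, and its enzymes are transcribed together under SREBP2, encoded by Srebf2. SREBP1, encoded by Srebf1, drives mainly the fatty acid genes. Both factors are held in the endoplasmic reticulum by SCAP and the INSIG proteins while sterol is plentiful and are released for cleavage when it falls. Dividing blood cells use both products for new membrane, and the desaturases encoded by Scd1 and Scd2 put the first double bond into saturated fatty acids.

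The upstream sequences of 5 of the genes are shown because these genes fell or rose in the comparisons below and because 4 of them hold letters known from SREBP-driven promoters. RefSeq's promoter table for GRCm38.p6 held 25 of the 32 genes, and its 250 bases before each start were searched on both strands for a sterol element (TCACNCCAC), an E-box (CACGTG) and a CCAAT box (CCAAT). In capitals below is each match. The Hmgcs1 window at chr13:119690101-119690350 on the plus strand holds the sterol element, with its first base 137 bases before the start. The windows of Sc5d (chr9:42264301-42264550, minus strand), Hsd17b7 (chr1:169969206-169969455, minus strand) and 1 of the listed starts of Dhcr7 (chr7:143823149-143823398, plus strand) hold an E-box, at 98, 143 and 164 bases before the start. The Nsdhl window (chrX:72918271-72918520, plus strand) holds CCAAT boxes at 109 and 20 bases and neither of the other motifs. It is shown because Nsdhl was the 1 gene of the set that rose under MCP, and was picked after that value was seen.
Hmgcs1: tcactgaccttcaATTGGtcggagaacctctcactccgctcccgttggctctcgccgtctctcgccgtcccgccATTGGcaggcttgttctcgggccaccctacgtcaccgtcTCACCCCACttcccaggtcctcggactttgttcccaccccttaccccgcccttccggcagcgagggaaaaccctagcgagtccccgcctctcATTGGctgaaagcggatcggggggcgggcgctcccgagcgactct
Sc5d: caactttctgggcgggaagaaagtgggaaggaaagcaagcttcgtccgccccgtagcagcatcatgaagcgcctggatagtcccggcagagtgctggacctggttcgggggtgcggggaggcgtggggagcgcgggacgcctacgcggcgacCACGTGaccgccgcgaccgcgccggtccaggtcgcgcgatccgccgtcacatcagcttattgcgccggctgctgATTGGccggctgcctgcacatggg
Hsd17b7: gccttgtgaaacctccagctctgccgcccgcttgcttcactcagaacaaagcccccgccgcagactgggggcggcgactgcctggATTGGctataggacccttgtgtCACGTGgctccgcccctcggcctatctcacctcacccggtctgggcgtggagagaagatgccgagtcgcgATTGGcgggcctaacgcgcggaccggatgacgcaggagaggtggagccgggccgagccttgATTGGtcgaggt
Dhcr7: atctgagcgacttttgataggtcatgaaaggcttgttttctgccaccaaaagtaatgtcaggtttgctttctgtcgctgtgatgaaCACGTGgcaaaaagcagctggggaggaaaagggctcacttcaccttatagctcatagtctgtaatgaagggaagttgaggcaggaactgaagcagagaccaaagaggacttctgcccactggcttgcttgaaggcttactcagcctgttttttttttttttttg
Nsdhl: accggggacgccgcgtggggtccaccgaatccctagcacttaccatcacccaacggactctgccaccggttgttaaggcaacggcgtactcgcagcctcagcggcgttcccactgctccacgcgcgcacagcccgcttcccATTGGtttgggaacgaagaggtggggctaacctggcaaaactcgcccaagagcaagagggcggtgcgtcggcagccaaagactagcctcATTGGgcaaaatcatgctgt

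The sterol element occurred in the windows of 1 of the 25 genes (4.0%, Hmgcs1) and of 1.22% of all 27025 genes in the table. An E-box was found in 5 of 25 (20%), which were Dhcr7, Hsd17b7, Insig1, Sc5d and Scap, against 6.86% of all genes and 10.24% of the 7949 protein-coding genes with at least 1 RPKM in both WT LSK libraries. CCAAT boxes were found in 19 of 25 (76.0%), against 37.49% of all genes and 41.4% of those expressed in WT LSKs. A match is a run of letters and not a measured binding site, and a window without one says nothing of the factor. The 7 genes with no window in the table were Fdps, Sqle, Fads1, Scd1, Stard4, Scd2 and Fdft1.

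The values are RPKM, reads scaled to gene length and to the mapped reads of a library. Every one of the 32 genes was above the lowest listed value in each LSK, Veh and MCP library, where 14279 to 20014 features were. WT LSC libraries listed 5525 to 7956 features above it and 5 to 14 of the 32 genes, and KO LSC libraries 1230 to 2967 features and 1 to 4 of the genes (plot of detected genes per library). The gene targeted in the KO, Cd93, was listed at 5.34 and 22.9 in WT LSK and 1.01 and 2.10 in KO LSK libraries, at 0.003, 0.003 and 5.74 in WT LSC, and at 0.003, 44.3 and 0.003 in KO LSC. The library labelled KO LSC 2 thus goes against its label, and results that rest on it are given without it too. Of 11 LSK and stem cell markers, all were above the lowest value in the LSK, Veh and MCP libraries, 2 to 5 in WT LSC and 1 in each KO LSC library, so the LSC groups of the first experiment largely lack the genes that define an LSK sort. In the drug experiment the summed level of these markers was 388.9 to 413.4 RPKM in Veh and 276.6 to 286.5 in MCP.

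**Figure D1:**
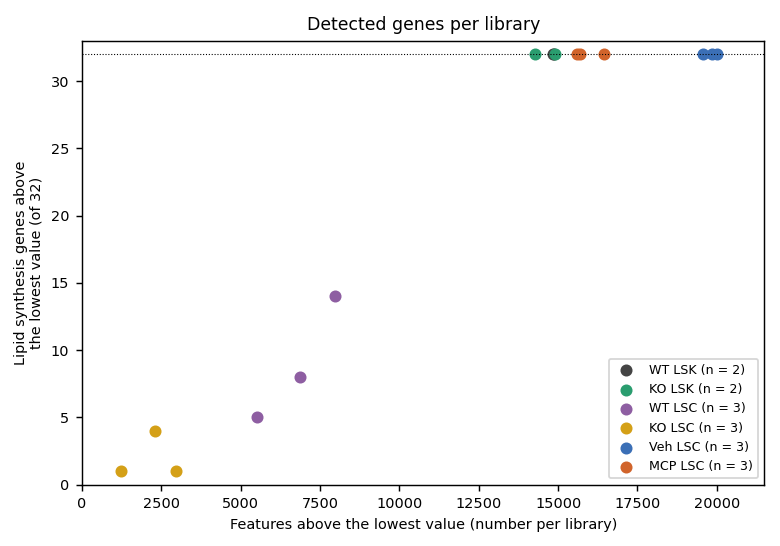
Each point is 1 library, with the number of features above the lowest listed value on the x axis and the number of the 32 lipid synthesis genes above it on the y axis. All LSK, Veh and MCP libraries list 32 of 32, WT LSC libraries 5 to 14 and KO LSC libraries 1 to 4.

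The drug comparison asked how MCP changed the LSCs of CML mice. Both stearoyl-CoA desaturase genes fell and Nsdhl, which encodes a sterol dehydrogenase that removes methyl groups from the sterol ring, rose. Of the 32 genes, 3 passed the test (9.38%), 1 higher and 2 lower, where 325 of all 14005 tested genes did (2.32%), 0.521% higher and 1.8% lower. The test was limma on log2(RPKM + 1) with Benjamini-Hochberg adjustment over all tested genes, two-sided. All 32 genes passed the filter on low values in Veh and 31 also in MCP, the exception being Insig2, the other INSIG gene. The median of all tested genes was a log2 difference of -0.18, and that of the 32 genes -0.27, so small negative differences are close to the shift of the whole table. In these bulk libraries fewer cells of a type and less RNA per cell cannot be told apart.

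Fatty acid synthesis held both genes that fell. Scd2, the desaturase isoform that was the more abundant one here, was listed at 132.7, 129.0 and 121.2 RPKM in the 3 Veh libraries and at 73.8, 80.0 and 83.3 in the 3 MCP libraries. Every MCP library lay below every Veh library. The means were 127.6 ± 5.91 and 79.0 ± 4.83 RPKM (SD, n = 3 each), 1.61-fold lower under MCP, with a log2 difference of -0.69 (SE 0.079) and an adjusted p of 0.0143 from limma. Scd1, the isoform best known from liver and fat, was listed at 6.30, 8.10 and 7.09 RPKM in Veh and 2.10, 2.51 and 2.46 in MCP. The groups did not overlap, the mean was 3.04-fold lower, and the log2 difference of -1.28 (SE 0.208) had an adjusted p of 0.0322 from limma.

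Scd1 and Scd2 lie near each other on chromosome 19, at 44394455 to 44407879 on the minus strand and 44293674 to 44306864 on the plus strand in GRCm38. Their longest reading frames were identical at 90.4% of 1068 aligned bases. Runs of 50 bases that occur in both transcripts made up 3.03% of those in Scd1 and 2.68% of those in Scd2, so reads of one can be counted for the other over a small part of each. How such reads were counted is not stated.

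The other 6 fatty acid genes had lower means under MCP without passing the test. Elovl6, which elongates palmitate, was listed at 7.40, 6.75 and 5.65 RPKM in Veh and 2.20, 3.04 and 1.74 in MCP. These groups did not overlap, with a 2.84-fold lower mean, a log2 difference of -1.20 (SE 0.24) and an adjusted p of 0.0528 from limma. Fasn, the fatty acid synthase, was listed at 59.2, 62.1 and 60.3 RPKM in Veh and 45.5, 47.5 and 47.1 in MCP, with an adjusted p of 0.0602 from limma for a log2 difference of -0.37 (SE 0.078). Acly, which cleaves citrate to acetyl-CoA, was at 74.2, 73.6 and 72.0 in Veh and 64.5, 59.3 and 56.8 in MCP, again without overlap (log2 difference -0.28, limma adjusted p 0.109). Acaca, the acetyl-CoA carboxylase, and the polyunsaturated fatty acid desaturases Fads1 and Fads2 had log2 differences of -0.21, -0.38 and -0.26, and their groups overlapped. Summed over the 8 genes, the level was 359.2, 370.5 and 350.0 RPKM in Veh and 264.1, 254.1 and 264.1 in MCP, and Scd2 made up the largest part of that sum in every library.

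The steps from squalene to cholesterol did not move one way. Nsdhl, at chromosome X 72918557 to 72958514 on the plus strand, was listed at 11.4, 10.7 and 12.1 RPKM in Veh and 19.5, 19.0 and 20.7 in MCP. The groups did not overlap, the mean was 1.73-fold higher, and the log2 difference was 0.75 (SE 0.129, limma adjusted p 0.0371). Ebp, the sterol isomerase, lay higher in every MCP library too, at 28.3, 41.5 and 25.5 RPKM against 23.4, 24.9 and 23.9, without passing the test. Hsd17b7, a sterol ketone reductase, was at 4.51, 7.42 and 4.65 in Veh and 2.30, 0.477 and 3.25 in MCP (log2 difference -1.22, SE 0.421, limma adjusted p 0.151). Of the 10 genes, 1 passed the test, 3 had a positive and 7 a negative difference, and their summed level of 139.4 to 152.2 RPKM in Veh overlapped that of 138.2 to 157.3 in MCP. The opening enzyme Sqle, squalene epoxidase, was at 24.9, 25.4 and 25.5 in Veh and 19.6, 27.7 and 25.5 in MCP, so its MCP libraries lay on both sides of Veh.

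None of the 8 genes from mevalonate to squalene passed limma's test at an adjusted p of 0.05, and 1 had an unadjusted p under 0.05. That gene was Idi1, the isopentenyl diphosphate isomerase, at 16.6, 17.3 and 16.7 RPKM in Veh and 14.3, 8.88 and 13.3 in MCP (limma adjusted p 0.202). Fdps, the farnesyl diphosphate synthase, was at 26.4, 27.7 and 28.8 in Veh against 33.2, 37.5 and 28.2 in MCP, with overlapping groups. The median log2 difference of these 8 genes was -0.11, above the -0.18 of all tested genes.

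Among the 6 sensors, factors and carriers 0 passed limma's test, 3 had an unadjusted p under 0.05, and all 6 had a negative difference with a median of -0.35. Stard4, a soluble sterol carrier, was at 38.9, 37.9 and 41.0 RPKM in Veh and 29.9, 31.8 and 23.1 in MCP (log2 difference -0.47, SE 0.136, limma adjusted p 0.107). Insig1, which encodes 1 of the INSIG retention proteins, was at 20.2, 19.8 and 17.4 in Veh and 16.5, 6.88 and 10.1 in MCP (limma adjusted p 0.154). Srebf2 was at 39.2, 39.7 and 40.9 in Veh and 33.8, 33.8 and 34.6 in MCP (log2 difference -0.22, limma adjusted p 0.185). In these 3 genes every MCP library lay below every Veh library.

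**Figure D2:**
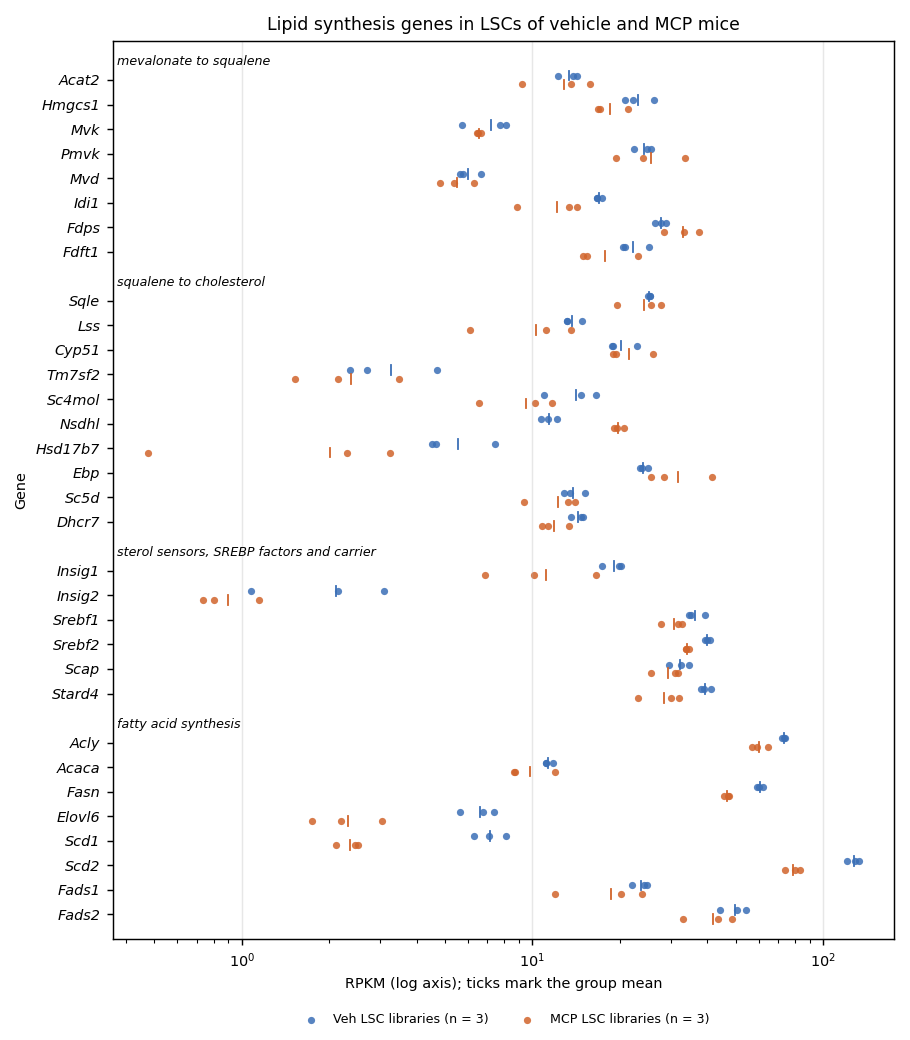
RPKM on a log axis for each of the 32 genes, 1 point per library, in the 3 Veh and 3 MCP libraries, with ticks at the group means. Scd2 is listed at 121.2 to 132.7 in Veh and 73.8 to 83.3 in MCP, and Nsdhl is the gene that passed the test with higher MCP values.

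In 12 of the 32 genes (37.5%) every MCP library lay below every Veh library, and in 2 (6.25%) above, where 25.6% and 4.91% of all tested genes did. The shares are near those of the whole table. A negative log2 difference was found for 27 of the 32 genes, and for 22 of them under quantile or median-of-ratios scaling, which moved the median of all genes to 0.00 and -0.02. Scaling also changed the split of calls over all genes: 73 higher and 252 lower became 109 and 151 with quantile scaling and 289 and 148 with median-of-ratios scaling. The directions of Scd2, Scd1, Nsdhl, Elovl6 and Fasn were the same under both, but the call of Scd1 was lost with quantile scaling (limma adjusted p 0.0534), and that of Nsdhl with library weights (0.0509).

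**Figure D3:**
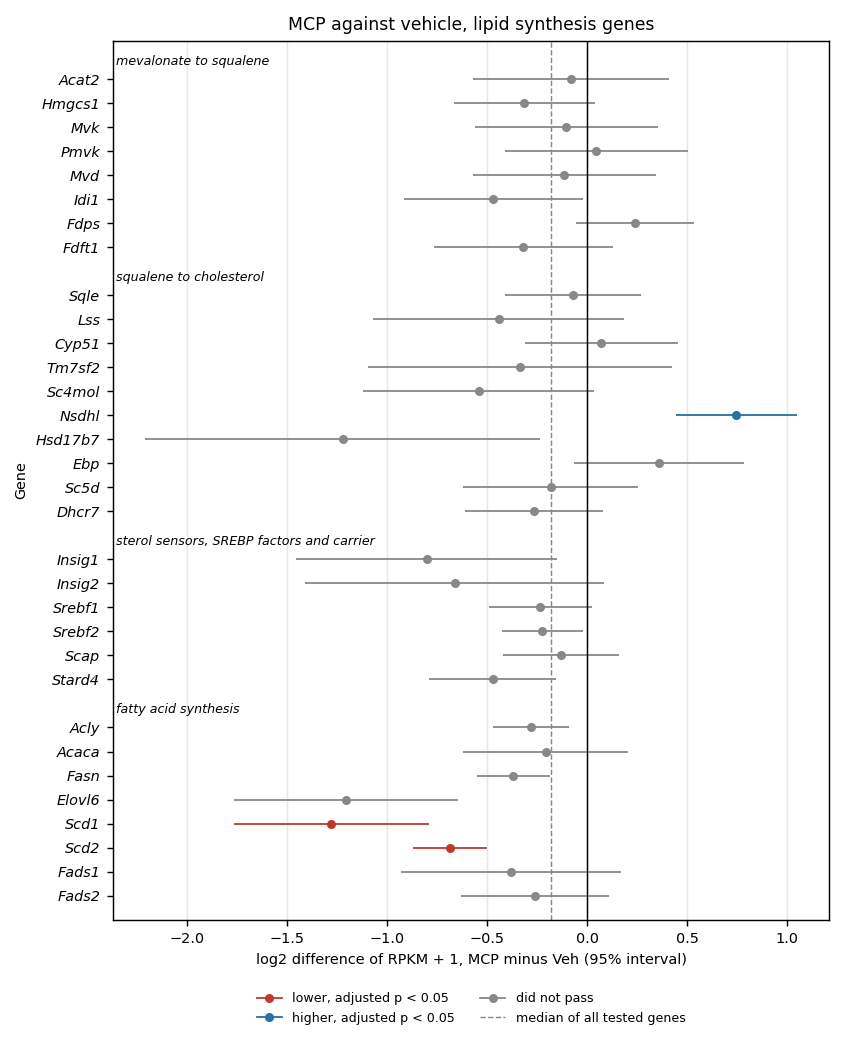
Log2 difference of MCP against Veh for each of the 32 genes on the log2(RPKM + 1) scale, with 95% confidence intervals, grouped by role. Scd2 at -0.69, Scd1 at -1.28 and Nsdhl at 0.75 are the 3 that passed the test.

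No gene of 6 further lists of lipid metabolism passed. Limma called 0 of 7 tested genes of the SREBP proteases and sterol-regulated degradation, 0 of 5 of the liver X receptor and efflux list, 0 of 10 of sterol transport and storage, 0 of 8 of the isoprenoid branch, 0 of 14 of fatty acid supply and elongation and 0 of 11 of fatty acid oxidation. At an unadjusted p under 0.05 these lists held 2, 2, 1, 1, 3 and 1 genes, where 3226 of all 14005 tested genes were. Abcg1, a cholesterol exporter and liver X receptor target, was at 16.6, 18.8 and 19.1 RPKM in Veh and 10.4, 3.90 and 12.1 in MCP (limma adjusted p 0.134).

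Markers of other cell states moved with the treatment as well. Neutrophil and granule genes rose in 5 of 10 cases, Elane, Ctsg, Prtn3, Mpo and S100a8, while Ltf, Ngp and Lcn2 had negative differences that did not pass, with a summed level of 3200 to 3455 RPKM in Veh and 4842 to 5006 in MCP. Mast cell and basophil genes fell in 4 of 5, with a sum of 224.2 to 237.8 in Veh and 72.8 to 79.7 in MCP, and megakaryocyte genes in 2 of 5 (Itga2b and Vwf), with a sum of 74.0 to 90.0 and 38.4 to 46.8. LSK and stem cell markers fell in 3 of 11 (Hlf, Slamf1 and Cd34), while MCP libraries listed 15587 to 16447 features above the lowest value and Veh libraries 19554 to 20014. The part of these shifts in the lipid gene differences was not tested. Leaving out any 1 Veh library ended all 3 calls, with limma adjusted p between 0.0546 and 0.173, while the log2 differences stayed between -0.72 and -0.66 for Scd2, -1.36 and -1.20 for Scd1, and 0.71 and 0.79 for Nsdhl. Without MCP LSC 1 or MCP LSC 3 the call of Nsdhl was lost as well (limma adjusted p 0.0501 and 0.0583), and without MCP LSC 2 Elovl6 passed (0.0437).

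In the first experiment, CML LSCs were set against naive LSKs of the same genotype. Most of the lipid synthesis genes were high in WT LSKs and at or near the lowest listed value in WT LSCs. Of the 32 genes 21 fell and 0 rose by limma, 9 did not pass, and Acaca and Scd1 were too low to be tested. The background was large: 43.8% of all 13485 tested genes changed, 42.3% lower and 1.45% higher. Most tested lipid genes could pass the filter on low values only through the LSK libraries, since 16 of the 32 were at the lowest value of 0.003 in all 3 WT LSC libraries, so their count is a description. The median log2 difference was -4.44 for the 30 tested lipid genes and -1.94 for all tested genes.

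The desaturase and elongase genes of the set were at 0.003 in every WT LSC library. Since such genes passed the filter only through the LSK libraries, their values are given without a p. In the WT LSK libraries Scd2 was at 17.4 and 49.1 RPKM, Elovl6 at 22.0 and 28.4, Fads1 at 12.4 and 30.7, and Fads2 at 27.7 and 39.8. Scd1, too low to be tested, was at 0.645 and 4.42 there. Fasn did not follow: it was at 24.0 and 34.0 in LSK and at 0.003, 18.8 and 18.6 in the WT LSC libraries (limma adjusted p 0.221).

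Sterol ring enzymes showed the same contrast, with 9 of 10 called lower, a count that is again a description. Nsdhl was at 38.9 and 36.6 RPKM in WT LSK and at 0.003 in all WT LSC libraries. The sterol desaturase gene Sc5d, the demethylase gene Cyp51, Sc4mol, which oxidises ring methyl groups, and Dhcr7, the last-step reductase, were at 0.003 in the 3 WT LSC libraries too. Tm7sf2, a sterol reductase, was at 20.4 and 15.4 in LSK and 0.258, 0.003 and 0.003 in LSC, and 12.1% of its exon bases are shared with Vps51 on the same strand. Ebp was the exception, at 114.7 and 104.2 in LSK and 0.467, 90.7 and 0.003 in LSC (limma adjusted p 0.0743).

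The mevalonate branch and the sensors were mixed. Mvk, mevalonate kinase, was at 26.4 and 16.7 RPKM in WT LSK and 0.003 in each WT LSC library, and 6 of the 8 genes of the branch fell. Hmgcs1, whose enzyme makes the HMG-CoA that precedes mevalonate, was at 7.16 and 41.9 in LSK and 4.97, 0.003 and 0.003 in LSC. Fdps was at 54.2 and 45.1 in LSK and 63.7, 149.1 and 57.2 in LSC, the 1 lipid gene with every WT LSC library above every WT LSK library, but it did not pass the test (limma adjusted p 0.419). Mvd, the mevalonate diphosphate decarboxylase, was at 26.7 and 22.9 in LSK and 10.6, 93.5 and 38.9 in LSC (0.893, limma).

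Insig2 was at 37.8 and 19.5 RPKM in WT LSK and 0.003 in every WT LSC library, and Srebf2 fell from 108.6 and 124.0 to 6.97, 5.38 and 0.003 (0.00227, limma). Scap, the SREBP escort, was at 25.7 and 52.7 in LSK and 15.0, 16.1 and 83.3 in LSC, with overlapping groups (0.735, limma). Fdps, Mvd and Scap were the 3 lipid genes above the lowest value in all 3 WT LSC libraries. A part of the exon bases of Fdps (26.7%) is shared with Gm43738 on the same strand and a part of those of Scap (13.2%) with 5830462I19Rik on the other strand, and whether the counting used strand is not stated.

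In 26 of the 30 tested genes (86.7%) every WT LSC library lay below every WT LSK library, and in 1 (3.33%), Fdps, above, where 56.3% and 6.29% of all tested genes did. By limma's call, where 42.3% of all tested genes fell, the lists around the pathway had 6 of 7 genes lower for the SREBP proteases and sterol-regulated degradation, 4 of 6 for the liver X receptor list, 6 of 8 for the isoprenoid branch and 10 of 13 for fatty acid supply. Sterol transport (5 of 10) and fatty acid oxidation (5 of 11) had shares near that of all genes, and 0 rose in each list. WT LSC libraries listed 1 to 3 of the 7 protease list genes above the lowest value and 1 to 5 of the 6 liver X receptor list genes. They listed 1 to 2 of the 8 isoprenoid and 3 to 5 of the 16 supply genes above it. Many list genes could thus pass the filter only through the LSK libraries, so these counts too are a description. Among those called lower were Slc25a1, the citrate carrier, Fnta, a farnesyltransferase subunit, and Cpt2, a carnitine palmitoyltransferase. Summed neutrophil and granule genes were at 5512 to 9047 RPKM in WT LSK and 88852 to 144431 in WT LSC, and summed stem cell markers at 1779 to 2687 and 10.5 to 78.7. The part of this shift in the lipid gene levels was not tested. With quantile scaling, 13 of the 30 genes passed, all lower, while over all genes 1351 rose and 1568 fell against 196 and 5709 without it.

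**Figure D4:**
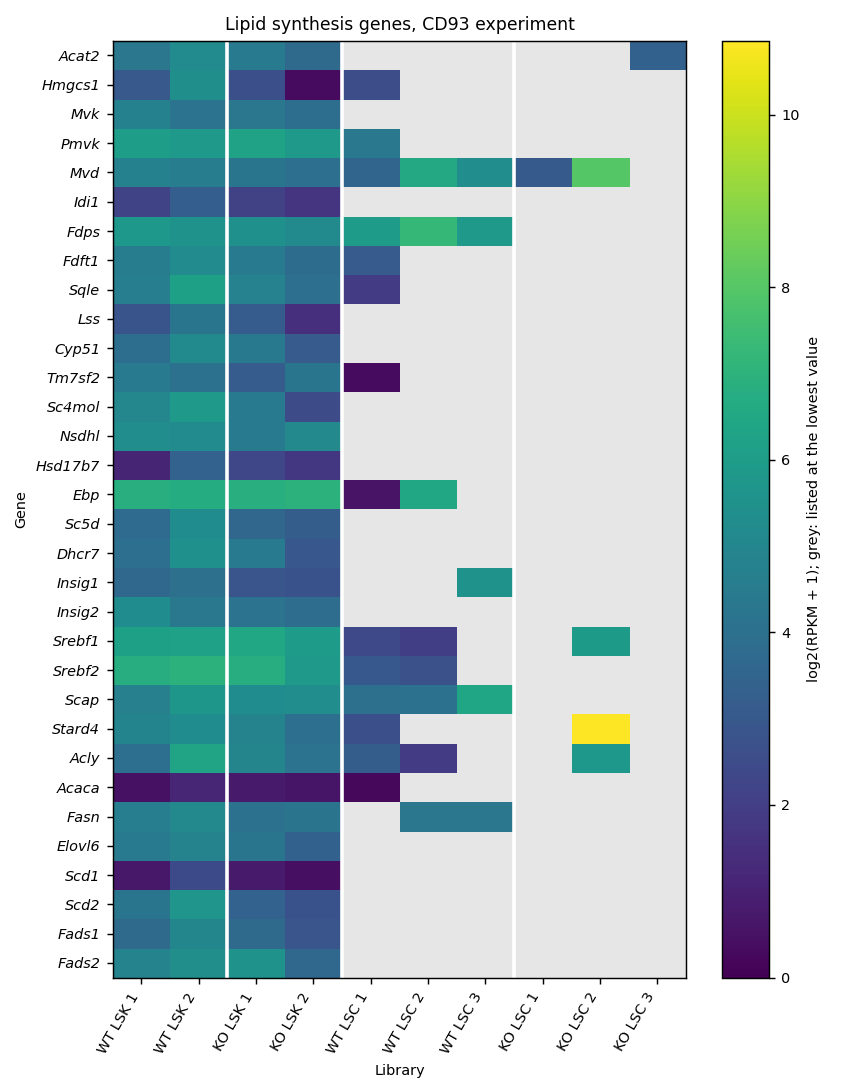
RPKM of the 32 genes in the 10 libraries of the first experiment, as log2(RPKM + 1) by colour, with 1 column per library and 1 row per gene, in order of role. Grey marks the lowest listed value, which stands for no signal. WT LSC columns show Fdps, Mvd and Scap in all 3 libraries, and KO LSC columns are grey for 27 genes throughout.

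KO LSC libraries gave almost no lipid synthesis signal. Of the 32 genes 27 were at 0.003 in all 3 libraries, and the other 5, Acat2, Mvd, Srebf1, Stard4 and Acly, were above it in 1 or 2. Acat2, an acetoacetyl-CoA thiolase, was at 9.29 RPKM in KO LSC 3 alone, and Mvd at 7.44 in KO LSC 1 and 252.5 in the library labelled KO LSC 2. Stard4 at 1854, Srebf1 at 60.3 and Acly at 54.2 RPKM were found only in the library labelled KO LSC 2, where Stard4 made up most of the summed 2221 RPKM of the set. The sums of the other 2 KO LSC libraries were 7.53 and 9.38 RPKM.

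Against KO LSK libraries limma called 24 of the 30 tested genes lower in KO LSCs and 0 higher, where 62.2% of all tested genes changed, 61.7% lower and 0.564% higher. As only 1 of the 32 genes reached 1 RPKM in 2 KO LSC libraries, nearly all passed the filter only through the LSK libraries, so this count too is a description and no p is given. In KO LSK, Nsdhl was at 21.4 and 33.7 RPKM, Mvk at 18.8 and 14.3, Elovl6 at 17.5 and 9.41 and Fdps at 43.1 and 35.8, each at 0.003 in the 3 KO LSC libraries. Insig2, Tm7sf2, Fads2, Sc5d, Fads1, Cyp51, Scd2 and Srebf2 were also at 0.003 in all of them. In 27 genes (90.0%) every KO LSC library lay below every KO LSK library, and so it was for 75.2% of all tested genes. Without the library labelled KO LSC 2 the number called lower was 26, beside 7934 of all 13472 tested genes. With quantile scaling 2 genes fell, 1 rose and the values of Sc5d, Fads1 and Scd2 changed sign, so the directions in the KO LSC libraries rest on the scale of the deposited values.

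The genotypes were then compared within each cell type. Between KO and WT LSCs 2 lipid genes fell and 0 rose among 30 tested (6.67%), where 8.81% of all tested genes changed, 8.74% lower and 0.0742% higher. Of the 30 genes 14 were at 0.003 in all 6 LSC libraries and could not be called. When only the LSC libraries were filtered and modelled, the same 2 of 8 tested lipid genes passed (25.0%), against 14.3% of 6074 tested genes. These 2 could pass that filter only through the WT LSC libraries, where they are high, so this share is a description. Fdps was at 63.7, 149.1 and 57.2 RPKM in WT LSC and 0.003 in all 3 KO LSC libraries (limma adjusted p 0.000548). Scap was at 15.0, 16.1 and 83.3 in WT LSC and 0.003 in all 3 KO LSC libraries (0.00401, limma). These were the 2 genes whose groups did not overlap (6.67%, against 14.1% of all genes that lay lower). Without the library labelled KO LSC 2 the adjusted p-values were 0.00222 for Fdps and 0.0142 for Scap by limma. Since all KO LSC values of these genes are equal, that is no independent check.

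The genes that follow in order of p were Fasn, Srebf2 and Ebp, with limma adjusted p of 0.211, 0.23 and 0.537. Fasn passed without WT LSC 1 (0.000638, limma), the WT LSC library where it was at 0.003, and Srebf2 without WT LSC 3 (0.00499, limma), where it was at 0.003. Both were at 0.003 in all 3 KO LSC libraries, which add no spread to these tests. KO LSC libraries listed fewer features above the lowest value (1230 to 2967) than WT LSC libraries (5525 to 7956), and the part of this in the values of Fdps and Scap was not tested.

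In naive LSKs, KO libraries had lower values for most lipid genes, but no gene of the set passed the test. Limma called 0 of 30 tested genes, 8 had an unadjusted p under 0.05, and 26 had a negative difference, where 247 of all 13485 genes passed (1.83%), 0.816% higher and 1.02% lower. Over all tested genes 1173 had an unadjusted p under 0.05. The median log2 difference was -0.70 for the lipid genes and -0.11 for all tested genes. In 15 of the 30 (50%) both KO libraries lay below both WT libraries and in 0 above, where 20.5% and 14.0% of all tested genes did.

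Scd2 was listed at 17.4 and 49.1 RPKM in WT LSK and 9.78 and 5.65 in KO LSK. Its mean was 4.31-fold lower in KO, with a log2 difference of -1.84 (SE 0.465, limma adjusted p 0.139). Sc4mol was at 31.8 and 56.6 in WT and 21.7 and 4.60 in KO (log2 difference -1.95, SE 0.604, limma adjusted p 0.263). Elovl6, at 22.0 and 28.4 in WT and 17.5 and 9.41 in KO, had a log2 difference of -0.91 and a limma adjusted p of 0.392. In these 3 genes the groups did not overlap. Sc5d at 12.8 and 38.0 against 11.1 and 8.20 and Idi1 at 3.64 and 8.56 against 3.36 and 2.17 RPKM followed, with adjusted p of 0.492 and 0.502 from limma. These SEs and p-values come from the model that also holds the LSC libraries. There each of the named genes was at 0.003 throughout, which adds no spread to the shared estimate. With only the LSK libraries modelled, 3 lipid genes had an unadjusted p under 0.05 by limma, in place of 8.

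The 2 libraries of a genotype differed from each other in 1 direction over most of the set. WT LSK 2 was above WT LSK 1 in 24 of 32 genes and the highest of the 4 libraries in 22, and KO LSK 2 was below KO LSK 1 in 27 and the lowest of the 4 in 24. Hmgcs1 shows this range, at 7.16 and 41.9 RPKM in WT and 5.32 and 0.236 in KO. In 13 of the 32 genes KO LSK 1 lay between the 2 WT libraries, and the summed level was 906.1 and 1284 RPKM in WT and 872.9 and 629.6 in KO. Marker levels differed between these libraries too. Kit was at 21.4 and 99.3 RPKM in WT and 23.6 and 14.2 in KO. Summed stem cell markers were at 1779 and 2687 in WT and 1750 and 1451 in KO. Summed macrophage markers were at 1674 and 935.2 against 2604 and 2038, while sums of the other marker lists overlapped. The part of this in the lipid gene values was not tested. The size of the lipid gene difference also turned on single libraries. Its median over the 30 tested lipid genes was a log2 difference of -1.09 without WT LSK 1 and -0.45 without WT LSK 2. Without KO LSK 1 the median was -1.05 and without KO LSK 2 -0.42. For all tested genes these medians were -0.20, -0.05, -0.19 and 0.00. Such fits leave 1 library in a group, so no calls are given for them.

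Genes that did not follow the lower KO values included Ebp, at 114.7 and 104.2 RPKM in WT and 110.1 and 123.5 in KO, Pmvk, the phosphomevalonate kinase, at 64.2 and 58.2 against 74.7 and 55.8, and Srebf1, at 71.8 and 73.9 against 86.3 and 63.6. These were chosen after their values were seen. Of the wider lipid lists 1 gene passed in LSKs: Acss2, which makes acetyl-CoA from acetate, at 12.3 and 14.7 RPKM in WT and 4.08 and 2.28 in KO (limma adjusted p 0.0134). When the model held only the 4 LSK libraries, limma called 0 of all tested genes, with 772 at an unadjusted p under 0.05 and 3 of the lipid genes among them, so the call of Acss2 rests on the spread shared with the LSC libraries.

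**Figure D5:**
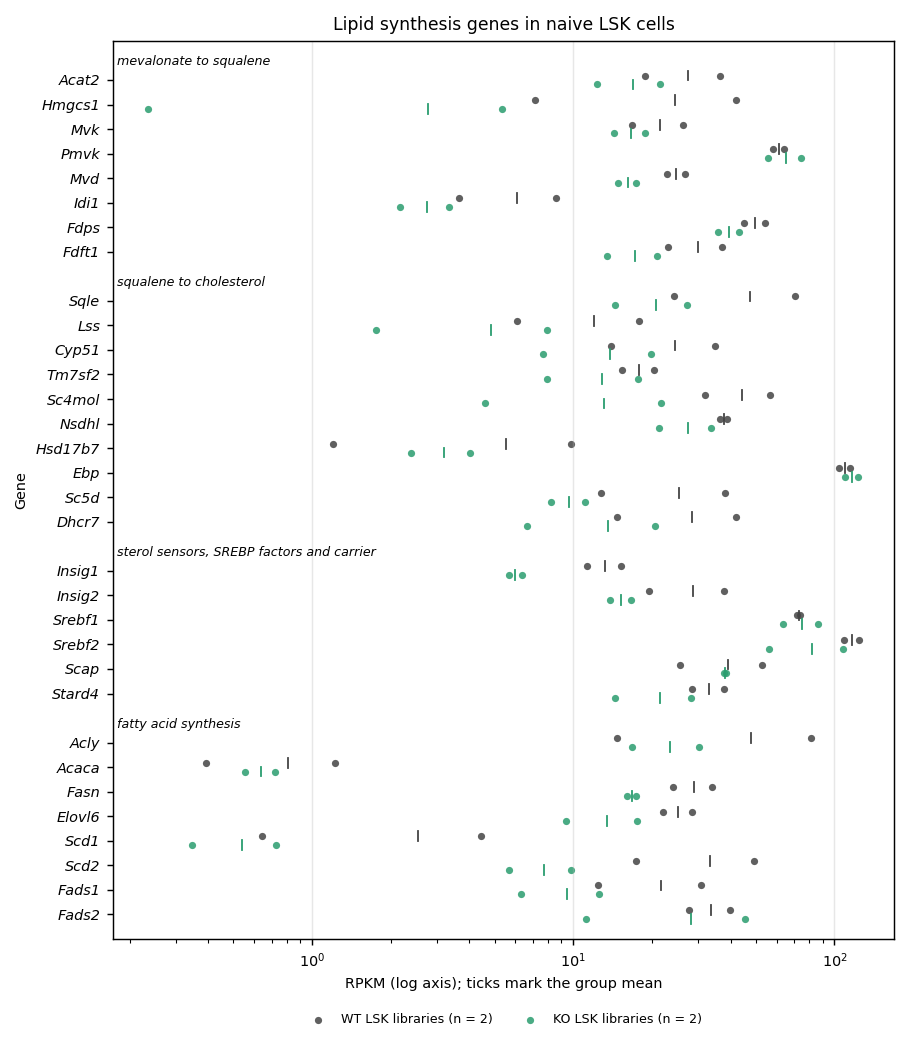
RPKM on a log axis for the 32 genes in the 2 WT LSK and 2 KO LSK libraries, 1 point per library, with ticks at the group means. KO LSK 2 is the lowest of the 4 in 24 genes and WT LSK 2 the highest in 22.

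Whether the LSC-against-LSK difference itself depended on CD93 was tested as an interaction. It passed for 1 of the 30 genes (3.33%), Fdps, and for 6.08% of all tested genes, 0.934% higher and 5.15% lower. Fdps stayed high in WT LSCs (63.7, 149.1 and 57.2 RPKM against 54.2 and 45.1 in WT LSK) and was at 0.003 in all 3 KO LSC libraries (43.1 and 35.8 in KO LSK), with a limma adjusted p of 0.0105 for the difference between these effects, and 0.0219 without the library labelled KO LSC 2. Scap, also at 0.003 in all 3 KO LSC libraries, had 0.0503, and 0.0919 without that library. For both genes the KO LSC values are equal and add no spread to the test. Leaving 1 of them out is therefore no independent check. Next in order of p were Scd2, Sc4mol and Elovl6, which did not pass. They were at 0.003 in every WT and KO LSC library. Their interaction is thus only the LSK genotype difference with its sign turned, so no p is given.

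Abundance differed between the cells of the experiments, which were normalised separately and are set side by side only as levels. Scd2 was the most abundant of the 32 genes in all 6 drug libraries (73.8 to 132.7 RPKM), while in naive LSKs Srebf2, Ebp, Pmvk and Srebf1 were each above it. Acaca was at 0.391 and 1.23 RPKM in WT LSK libraries and at 11.1 to 11.8 in Veh. Scd1, at 0.645 and 4.42 in WT LSK, was at 6.30 to 8.10 in Veh. All 32 genes were listed above the lowest value in LSCs of the drug experiment, whereas WT LSCs of the first experiment listed 14 at most.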

How the data were processed

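Per the labels' protocols, RNA was amplified by SMART-Seq v4; 16 libraries were analysed, 10 from the CD93 and 6 from the drug experiment. The authors deposited 1 value per feature and library, read here as RPKM because of the values' range and totals, as no label states a unit. GRCm38 (mm10) was the build per the submitters' processing notes; for the aligner, counting tool and strand setting, none is given in the sources used here. A lowest listed value, 0.003 in the CD93 and 0.001 in the drug experiment, stands for no signal, so for genes at it each library's value is given and no fold. No counts were used, and depth is unknown: 16.7% to 71.4% of the low values of single-exon genes lay within 0.1 of a whole multiple of the best step, too few to give a depth. Column totals were 828690 to 1360625.

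Values were analysed as log2(RPKM + 1) with limma 3.58.1 (R 4.3.3, statmod 1.5.0) with an intensity trend, 1 model per experiment with 1 mean per group. Tested were features that reached 1 RPKM in 2 or more libraries; p-values were two-sided and adjusted by Benjamini-Hochberg over all tested features, and the threshold was 0.05. A difference on this scale understates the change of low genes. Intervals are at 95%. The script was tested on simulated data.

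The members, lists and tests were chosen with earlier results of these data known. Named were, in each comparison, all members that passed (up to 12 by p) or the 5 with the smallest p, and of other lists up to 3 genes that passed; further genes are given as role examples. Genes of the other lists were matched by symbol (107 and 108 in the CD93 and drug experiments) or synonym (4 in each); 1 was not found in the former. Alternatives were the scaling, filter, added constant, library weights, groups in the model, replicate block and leaving out each library. The main model did not pair libraries by number. Same-numbered libraries correlated at -0.282 to 0.038 in their deviations, which cannot exclude pairing.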

Additional observations from a re-analysis of the deposited data

Results flagged for a closer look

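Fdps was the 1 gene of the set for which the LSC-against-LSK difference itself differed between the genotypes. On the log2(RPKM + 1) scale the effect in KO minus that in WT was -6.041 (limma adjusted p 0.0105), a size that depends on the added constant because Fdps is at 0.003 in all 3 KO LSC libraries. In WT it was listed at 54.2 and 45.1 RPKM in LSKs and 63.7, 149.1 and 57.2 in LSCs, and in KO LSKs at 43.1 and 35.8. KO LSC libraries listed 1230 to 2967 features above the lowest value, and the part of this in the value was not tested. Without the library labelled KO LSC 2, whose Cd93 value goes against its label, the limma adjusted p was 0.0219. As the other KO LSC libraries list the same 0.003, without spread, this is no independent check. The call was lost with quantile scaling (limma adjusted p 0.106).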

How the results depend on the processing

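Over 44 named gene results, 571 alternative values were computed: 524 kept direction and side of the threshold, 27 kept direction but lost the call, 17 gained one and 3 reversed. The reversed ones were Sc5d (log2 difference 0.036), Fads1 (0.058) and Scd2 (0.171) in KO LSC against KO LSK with quantile scaling, where 3 genes of the set passed in place of 24; the cause was not tested. Quantile scaling left 13 genes in WT LSC against WT LSK and 0 in the interaction (9 at an unadjusted p under 0.05). In the interaction a mean of at least 5 RPKM gave 2 genes and an added constant of 0.1 also 2, Fdps and Scap. Leaving out 1 LSC library gave 0 to 4 genes for MCP against Veh and 21 for WT LSC against WT LSK. For KO LSC against KO LSK it gave 23 to 26 genes. For KO against WT in LSCs it gave 2 to 3, and for the interaction 1 to 3. Fits without an LSK library leave 1 in a group, so no counts are given for them, though the totals above include them.

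With the replicate block, limma called 0 genes of the set for MCP against Veh (10 at an unadjusted p under 0.05; 39 of all genes called) and 0 for the interaction (3 at an unadjusted p under 0.05; 0 of all genes), and it changed no other count of the set by more than 1. Whether numbers pair the libraries is not known. Same-numbered drug libraries correlated at -0.008 to 0.014 and differently numbered ones at -0.023 to 0.016, which gives no sign of pairing but cannot exclude it. In LSKs the same numbers correlated at -0.282 and crossed numbers at 0.282, mirrored values that groups of 2 force. Pairing them crosswise called 5 genes of all tested and 0 of the set, an alternative added after the data were seen. Leaving out the 3 KO LSC libraries was added then too. It called 22 of 30 genes in WT LSC against WT LSK, all lower, where 5415 of all 13448 tested genes fell and 369 rose. Between LSK genotypes it called 0 of all genes (713 at an unadjusted p under 0.05). Of all tested genes, 0 were called between LSK genotypes with only these groups modelled. With no filter 183 were called higher and 221 lower, against 247 called in the main fit. Median-of-ratios scaling rested on 647 genes in the CD93 experiment. Depth is unknown, and its part in values at 0.003 was not tested.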

Other observations

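In LSCs, 4 of 55 tested genes of the 6 lists around the pathway (7.3%) fell in KO against WT by limma, a share near the 8.74% of all tested genes, and each was at 0.003 in all 3 KO LSC libraries. Nr1h2, a liver X receptor that senses oxysterols, was at 71.0, 39.2 and 41.4 RPKM in WT LSC (limma adjusted p 0.000662), and Npc2, which binds cholesterol in lysosomes, at 195.7, 8.12 and 29.5 (0.0198, limma). The fatty acid oxidation genes Eci1 and Acadl were at 222.9, 134.8 and 39.0 and at 42.3, 12.1 and 50.1 RPKM (0.00122 and 0.00275, limma). Without the library labelled KO LSC 2 the limma adjusted p-values were 0.00231 (Nr1h2), 0.0492 (Npc2), 0.00389 (Eci1) and 0.00822 (Acadl), and without KO LSC 3 Npc2 did not pass (0.0574). As the KO LSC values are equal, leaving 1 out is no independent check. With quantile scaling Npc2 did not pass either (limma adjusted p 0.084), while Nr1h2, Eci1 and Acadl did. Naive LSK libraries listed all 4 genes between 124.4 and 277.7 RPKM, in WT and KO alike. KO LSC libraries listed 1230 to 2967 features above the lowest value, and the part of this in these values was not tested.

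In the drug experiment the same 4 genes gave no call by limma. Elovl7, a fatty acid elongase, was at 3.05, 2.35 and 3.01 RPKM in Veh and 1.26, 1.06 and 0.413 in MCP (limma adjusted p 0.0981), beside the lower Elovl6 described above, and Acss2 was at 11, 14.2 and 12.1 against 10.6, 11.1 and 15.1 (0.957, limma).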
